A study of Mus musculus with 6 samples.

Results

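The 10 genes described here belong to the TNF receptor superfamily and were taken by their symbols, Fas, Tnfrsf10b, Tnfrsf12a, Tnfrsf1a, Tnfrsf1b, Eda2r, Tnfrsf18, Tnfrsf21, Ltbr and Cd40, from a table of 32544 genes. The 10 symbols were all found, and all 10 genes passed the limit on low values, so that each was tested. Eda2r passed it only through its values in the treated group. Aristolochic acid I (AA), a plant nephrotoxin that forms bulky DNA adducts once it has been reduced in cells, or its solvent dimethyl sulfoxide (DMSO) had been injected once into C57Bl/6 mice, with 3 mg/kg as the stated dose. After 24 h, proximal tubules of the S2 and S3 segments were microdissected, and polyadenylated RNA was sequenced in 3 AA libraries and 3 DMSO libraries. Tubules were pooled, 5 to 10 of them per kidney. The mice of both groups are described as control mice with no genetic change named. Whether each library stands for its own mouse is not stated, so the p-values measure the spread between these libraries, which may be technical.

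TNF receptors are cell surface proteins that bind trimeric ligands of the TNF family. Those with a cytoplasmic death domain, such as Fas, can recruit FADD or TRADD and lead to activation of caspase 8 or, when caspases are blocked, to necroptosis. Many receptors of the family, with or without a death domain, feed the canonical NF-κB pathway by way of TRAF adaptors, the IKK complex and RelA. Some feed the noncanonical one, through the kinase NIK and the p52 and RelB subunits. In injured kidney tubules, TNF receptor 1, Fas and the TWEAK receptor Fn14 are known as mediators of cell death and inflammation.

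Libraries held 13304877 to 17815915 counted reads in AA and 15958557 to 31136251 in DMSO, so that 1 read stood for 0.0561 to 0.0752 CPM (counts scaled to a common library total) in AA and 0.0321 to 0.0627 CPM in DMSO. Values are CPM unless stated otherwise, and fold changes are AA over DMSO on the log2(CPM + 1) scale, which understates changes of genes with low values. A gene was called at a Benjamini-Hochberg adjusted p under 0.05 in limma's moderated test across the 14311 tested genes. DMSO replicates 1 and 2 stood apart from DMSO replicate 3 and all AA libraries by more than 2 on the log2 scale in 40 tested genes, of which 38 had symbols of predicted genes or pseudogenes. Results were therefore also fitted with a term for these library sets, in which the AA effect rests on DMSO replicate 3. The 12 markers of the proximal tubule were present in every library and summed to 11762 to 14520 CPM in AA and to 22757 to 29696 CPM in DMSO, with 1 higher, 5 lower and 6 that did not pass (0 higher and 7 lower with library medians made equal). Markers of other cells were present as well, and those of endothelium (3 of 10 called higher, sum 428 to 494 CPM in AA against 274 to 419 in DMSO), of fibroblasts and pericytes (4 of 9 higher, 183 to 222 CPM in AA against 96.3 to 141 in DMSO) and of podocytes (1 of 5 higher, 77.8 to 123 CPM in AA against 51.3 to 75.7 in DMSO) had sums that did not overlap. For endothelium, the lowest AA sum (428 CPM) was close to the highest DMSO sum (419 CPM). With library medians made equal, 2 of 10 endothelial, 3 of 9 fibroblast and pericyte and 1 of 5 podocyte markers were called higher. The sum of 10 markers of the thick limb, distal tubule and collecting duct was 366 to 1398 CPM in AA and 239 to 532 CPM in DMSO, with 2 called higher. For comparison, 22.3% of all tested genes were called higher and 8.66% lower (11.2% and 16.9% with library medians made equal). Groups did not overlap in 46.4% of all tested genes. The part of the other cells named here in the results on receptors was not tested. In such bulk samples, fewer cells of a type and less RNA per cell cannot be told apart.

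Promoter stretches of 3 receptors that were higher in AA and of the one that was lower are shown, because Tnfrsf12a and Eda2r rose most, Fas held the one AP-1 site found and Tnfrsf21 went the opposite way. They are RefSeq sequences on GRCm38.p6, 5′ to 3′ on the gene's strand, and end before the first base of the gene in RefSeq and in GENCODE M21. Capitals mark a TATA box (TATAAA), a GC box (GGGCGG) or an AP-1 site (TGANTCA) found on either strand. The stretches lie at chr17:23677469-23677699 on the minus strand for Tnfrsf12a, chrX:97377217-97377459 on the minus strand for Eda2r, chr19:34290409-34290658 on the plus strand for Fas and chr17:43016305-43016554 on the plus strand for Tnfrsf21.
Tnfrsf12a: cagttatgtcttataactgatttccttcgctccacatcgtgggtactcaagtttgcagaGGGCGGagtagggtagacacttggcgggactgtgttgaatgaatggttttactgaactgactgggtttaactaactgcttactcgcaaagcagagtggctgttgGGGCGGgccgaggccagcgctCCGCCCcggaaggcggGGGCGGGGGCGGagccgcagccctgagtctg
Eda2r: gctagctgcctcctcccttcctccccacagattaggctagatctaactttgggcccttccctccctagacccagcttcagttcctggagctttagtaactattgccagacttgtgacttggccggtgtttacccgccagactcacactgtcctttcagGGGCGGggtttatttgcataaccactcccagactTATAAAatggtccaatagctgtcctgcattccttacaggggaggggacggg
Fas: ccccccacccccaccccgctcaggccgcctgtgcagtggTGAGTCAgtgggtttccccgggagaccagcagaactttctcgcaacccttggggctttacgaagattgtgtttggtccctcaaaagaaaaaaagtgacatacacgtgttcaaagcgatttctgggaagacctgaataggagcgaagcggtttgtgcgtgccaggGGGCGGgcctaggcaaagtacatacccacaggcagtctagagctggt
Tnfrsf21: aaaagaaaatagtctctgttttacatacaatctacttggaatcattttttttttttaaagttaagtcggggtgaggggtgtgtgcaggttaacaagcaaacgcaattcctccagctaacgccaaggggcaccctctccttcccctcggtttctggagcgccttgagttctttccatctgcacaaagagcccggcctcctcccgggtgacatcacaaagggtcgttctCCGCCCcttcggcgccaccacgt

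The window of 250 bases before the RefSeq start was searched for 8 of the 10 receptors. By GENCODE M21, the window of Tnfrsf1a lay wholly inside the gene and only 92 bases of that of Tnfrsf18 lay before it, so both windows say little about sequence upstream of these genes. A GC box stood in 6 of the 8, with 5 matches in Tnfrsf12a, some of them next to each other, and it stood in 32.7% of the 32851 windows of all genes. The TATA box was found in 1 of the 8, that of Eda2r, against 12.4% of all windows, and the AP-1 site in 1, that of Fas, against 6.75%. The p53 half-site was found in 0 of the 8 (7.13% of all windows), the p53 full site, a pair of half-sites up to 13 bases apart, in 0 (0.0639%), and the κB site in 0 (3.90%). These are letter matches in short windows, and introns and distant elements were not searched.

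AA tubules had more RNA of 7 of the 10 receptors, less of 1, Tnfrsf21, and no called difference in Ltbr and Cd40. The largest increases were those of Eda2r (30.5 times the DMSO mean) and Tnfrsf12a (10.9 times), followed by Tnfrsf10b (4.47 times) and Tnfrsf1b (4.29 times). Fas, Tnfrsf1a and Tnfrsf18 stood at 2.56, 2.47 and 2.43 times the DMSO mean, and Tnfrsf21 at 0.597 times. Of all tested genes, 30.9% were called, 22.3% as higher and 8.66% as lower. The AA values lay above every DMSO value in 8 receptors (33.4% of all tested genes) and below every DMSO value in 1 (13% of all tested genes), so that groups did not overlap in 9, against 46.4% of all tested genes. The median log2 fold change was 1.25 over the 10 receptors and 0.21 over all tested genes. With library medians made equal, which moved the median of all genes to -0.05, 7 receptors were called (28.1% of all tested genes), 6 as higher (11.2%) and 1 as lower (16.9%), and the call lost was that of Tnfrsf18. TMM factors also gave 7 (27.8% of all tested genes), 6 higher (13.2%) and 1 lower (14.6%), and so did dropping the filter (15.5%), with 6 higher (11.3%) and 1 lower (4.13%). With the term for library sets 5 receptors were called (10.3% of all tested genes), 5 as higher (7.39%) and 0 as lower (2.96%), where the calls of Fas, Tnfrsf18 and Tnfrsf21 were lost in limma's test.

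**Figure D1:**
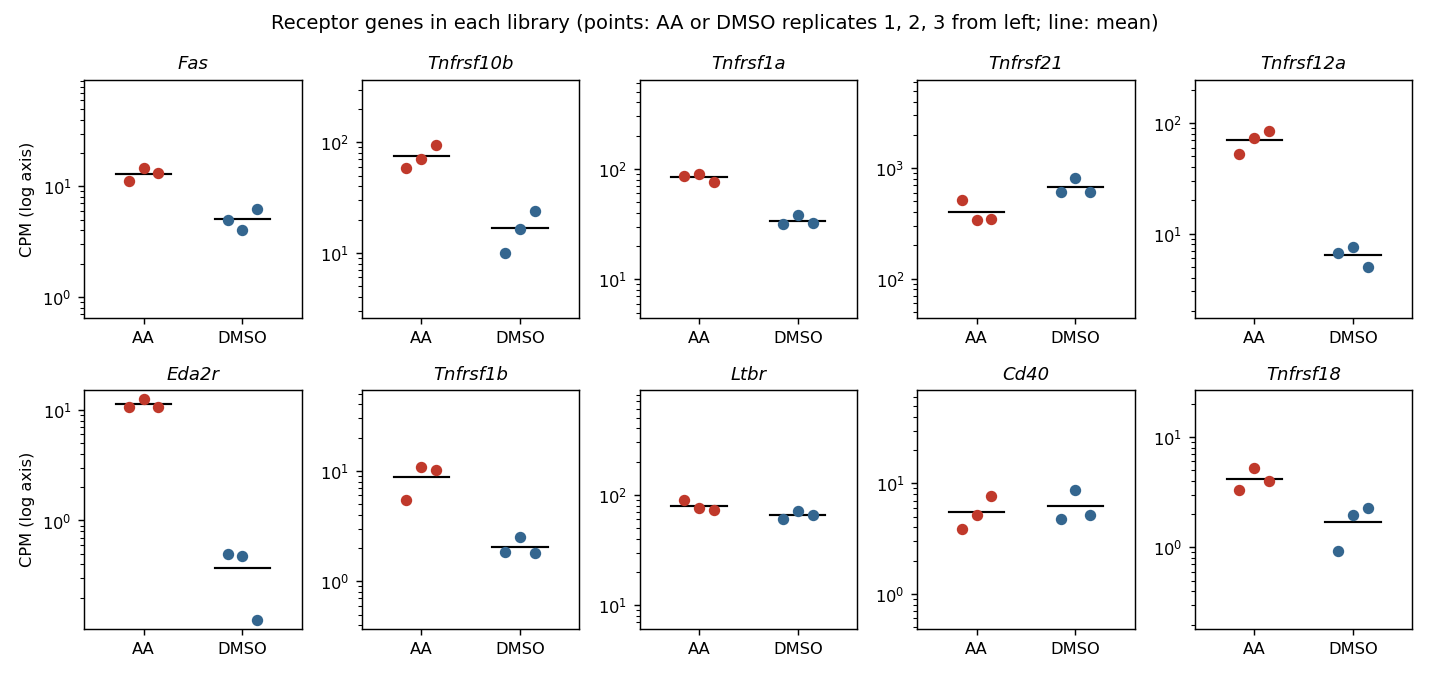
CPM of each receptor gene (log axis, each panel spanning the same fold range) in the 3 AA and the 3 DMSO libraries, with a line at the mean of each group. The groups did not overlap in 9 of the 10 panels, the exception being Cd40.

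Among the receptors with a death domain, Fas, Tnfrsf10b and Tnfrsf1a were higher in AA. Fas (mm10 chr19:34290666-34327772, plus strand), the receptor of Fas ligand and a known p53 target, had 11.3, 14.6 and 13.2 CPM in AA replicates 1, 2 and 3, against 4.98, 4.05 and 6.27 CPM in the DMSO replicates. All AA values were above all DMSO values, and the 2 groups averaged 13.03 ± 1.67 CPM in AA and 5.10 ± 1.11 CPM in DMSO (SD, n = 3 each). The log2 fold change was 1.21 (SE 0.23, limma adjusted p = 0.00304). Under the term for library sets Fas stood at 0.94 and was not called (adjusted p = 0.0836); DMSO replicate 3 had the most Fas RNA of the DMSO libraries.

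Tnfrsf10b (chr14:69767472-69784411, plus strand) encodes the only death-domain receptor for TRAIL in the mouse and is another known p53 target. Its values were 59.0, 70.8 and 94.1 CPM in AA and 10.04, 16.3 and 23.7 CPM in DMSO. The lowest AA library was thus well above the highest DMSO library, although both groups spread widely (74.6 ± 17.9 CPM in AA, 16.7 ± 6.83 CPM in DMSO). On the log2 scale the difference was 2.15 (SE 0.27, adjusted p = 0.000319), or 1.59 when fitted with library sets (adjusted p = 0.00763).

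Tnfrsf1a (chr6:125349362-125362484, plus strand) encodes TNF receptor 1, which most cell types carry. It had 86.9, 89.3 and 76.5 CPM in AA and 31.9, 37.9 and 32.5 CPM in DMSO, with the smallest relative spread of the receptors in AA (coefficient of variation 8.09%). The means were 84.2 ± 6.82 CPM in AA and 34.1 ± 3.30 CPM in DMSO, and the log2 fold change was 1.28 (SE 0.14, adjusted p = 0.000138).

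Tnfrsf21 (chr17:43016555-43089189, plus strand), which encodes death receptor 6, went the other way and was the receptor with the highest level in both groups. It had 513, 343 and 348 CPM in AA and 605, 809 and 604 CPM in DMSO. AA replicate 1 stood closer to the DMSO libraries than AA replicates 2 and 3 did, and no AA value reached the lowest DMSO value. The means were 402 ± 96.9 CPM in AA and 673 ± 118 CPM in DMSO, or -0.75 on the log2 scale (SE 0.19, adjusted p = 0.0129). It missed the threshold without AA replicate 2 (-0.65, adjusted p = 0.0626) or AA replicate 3 (-0.67, adjusted p = 0.0552) and when library sets were fitted (-0.61, adjusted p = 0.157).

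The receptors without a death domain held the 2 largest increases. Tnfrsf12a (chr17:23675445-23677468, minus strand) encodes Fn14, the small receptor of the cytokine TWEAK. Its values were 52.3, 74.0 and 84.8 CPM in AA and 6.65, 7.64 and 5.01 CPM in DMSO. Every AA library held several times more than any DMSO library (means 70.4 ± 16.6 CPM in AA and 6.44 ± 1.33 CPM in DMSO). The log2 fold change was 3.25 (SE 0.22, adjusted p = 6.72e-06) and reached 3.54 against DMSO replicate 3 alone.

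Eda2r (chrX:97333840-97377216, minus strand) encodes XEDAR, the receptor of the A2 form of ectodysplasin, and is known from human cells as a p53 target. It had 10.6, 12.5 and 10.7 CPM in AA and 0.502, 0.482 and 0.125 CPM in DMSO. The DMSO values rest on 12, 15 and 2 reads, against 141, 223 and 149 reads in AA, so the DMSO level is imprecise while the AA level is not. Eda2r met the limit of 1 CPM in 3 libraries only through its AA values. It was also called without that limit. The means were 11.3 ± 1.08 CPM in AA and 0.370 ± 0.212 CPM in DMSO. The log2 fold change was 3.17 with 1 added to CPM (SE 0.25, adjusted p = 1.72e-05), 1.598 with 5 added, and 4.93 with voom, limma's weighting of counts, on reads recovered from the deposited values.

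Tnfrsf1b (chr4:145213463-145246870, minus strand) encodes TNF receptor 2, found mostly on leukocytes and endothelium. Its values were 5.41, 10.9 and 10.1 CPM in AA and 1.84, 2.51 and 1.82 CPM in DMSO, and AA replicate 1, the lowest of its group, was still above every DMSO library. The means were 8.81 ± 2.97 CPM in AA and 2.05 ± 0.390 CPM in DMSO, or 1.64 on the log2 scale (SE 0.29, adjusted p = 0.00207) and 0.95 with 5 added to CPM.

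Tnfrsf18 (chr4:156026164-156028895, plus strand) encodes GITR, a costimulatory receptor of T cells. It had 3.31, 5.22 and 3.95 CPM in AA and 0.921, 1.96 and 2.26 CPM in DMSO. No AA value was as low as a DMSO value, and the difference was 0.95 on the log2 scale (SE 0.29, adjusted p = 0.0299). That call was lost with library medians made equal (0.69, adjusted p = 0.0732), with TMM factors (adjusted p = 0.0521), without a filter on low values (adjusted p = 0.0807) and under the term for library sets (adjusted p = 0.334). It was also lost without AA replicate 2 (adjusted p = 0.118), without AA replicate 3 (adjusted p = 0.0646) and without DMSO replicate 1 (adjusted p = 0.104). Exons of Tnfrsf18 overlap those of Gm16008 on the opposite strand by up to 253 bases in GENCODE M21, and although the kit keeps strand, no source used here gives the strand setting of the counting, so its level is uncertain to that extent.

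Cd40 (chr2:165055627-165072948, plus strand), a costimulatory receptor of B cells and macrophages that epithelial cells can also carry, had 3.83, 5.16 and 7.68 CPM in AA and 4.81, 8.74 and 5.14 CPM in DMSO. The groups overlapped, and the log2 fold change was -0.14 (SE 0.30, adjusted p = 0.744). Ltbr (chr6:125306571-125313885, minus strand) encodes the lymphotoxin β receptor, which starts the noncanonical NF-κB pathway. It had 89.6, 75.3 and 72.8 CPM in AA and 60.2, 72.0 and 65.2 CPM in DMSO. The lowest AA library lay just above the highest DMSO library, but the difference was not called (log2 fold change 0.26, SE 0.14, adjusted p = 0.178) and was 0.00 with library medians made equal.

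Leukocyte markers stood beside these lymphoid and myeloid receptors as follows. The 3 markers of all leukocytes, Ptprc, Laptm5 and Coro1a, summed to 17.4 to 21.7 CPM in AA and 11.8 to 16.0 CPM in DMSO, with 0 of 3 called in limma's test. The 12 markers of macrophages summed to 173 to 235 CPM in AA and 184 to 274 CPM in DMSO, with 3 called higher, but Csf1r alone made up 111 to 172 CPM of that sum in AA and 159 to 253 CPM in DMSO. Csf1r was not called as deposited (-0.50 on the log2 scale, adjusted p = 0.0773) and was called lower in 3 of 15 alternatives, which were equal library medians (-0.76), TMM factors (-0.71) and leaving out DMSO replicate 1 (-0.67). The other 11 macrophage markers all had a higher mean in AA and summed to 61.7 to 74.5 CPM in AA and 18.7 to 25.1 CPM in DMSO, a sum chosen after seeing the data. Cd68, which macrophages carry in lysosomes, had 20.1, 26.6 and 38.4 CPM in AA and 1.17, 1.25 and 0.376 CPM in DMSO, and without it the sum was 35.1 to 42.8 CPM in AA and 18.3 to 23.9 CPM in DMSO. Lyz2 and C1qb, the other called markers, stood at 3.26 and 2.24 times the DMSO mean. The 11 markers of lymphocytes summed to 9.24 to 14.4 CPM in AA and 6.28 to 12.04 CPM in DMSO, with 1 called higher and 7 too low to test. Across all tested genes, 22.3% were called higher. The part of leukocytes in the values of Tnfrsf1b, Tnfrsf18 and Cd40 was not tested.

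**Figure D2:**
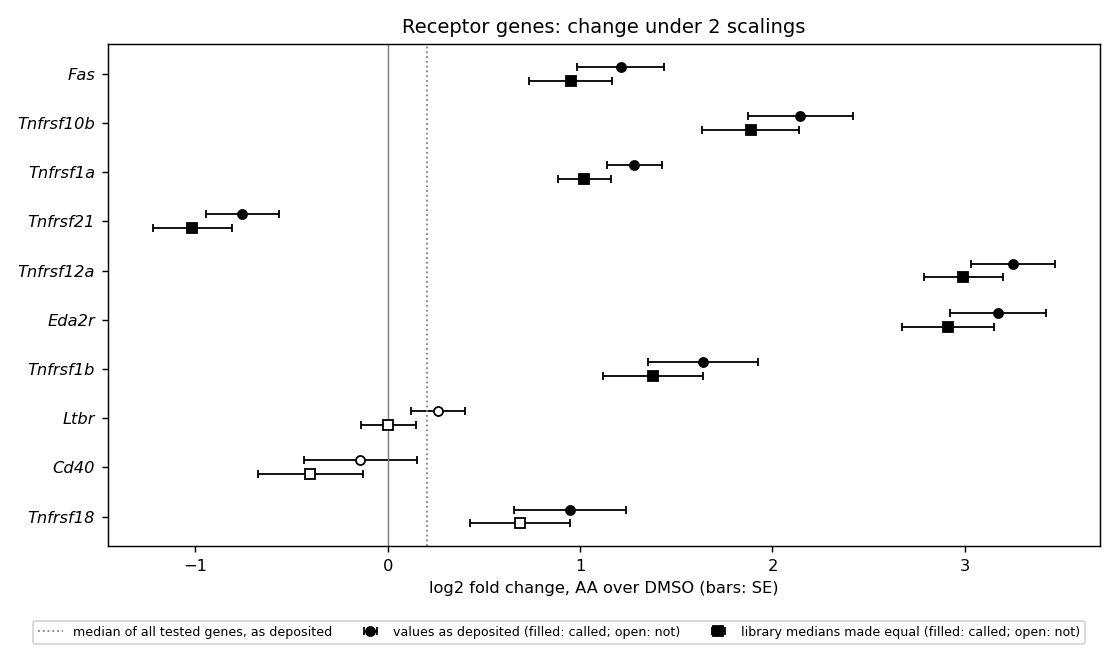
Log2 fold change of AA over DMSO with its SE for each receptor, as deposited (circles) and with library medians made equal (squares). Filled marks passed the test, and the change of scaling took Tnfrsf18 to 0.69, below the call, and Ltbr to 0.00.

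AA replicate 1 had the lowest AA value in 7 receptors (Fas, Tnfrsf10b, Tnfrsf12a, Tnfrsf1b, Eda2r, Tnfrsf18 and Cd40), as it had in 46.9% of all tested genes, and the highest in 2, Tnfrsf21 and Ltbr (22.4% of all tested genes). AA replicate 2 had the highest value in 5 (39.96% of all tested genes). Among DMSO libraries, the coefficient of variation ran from 8.995% in Ltbr to 57.3% in Eda2r, and among AA libraries from 8.09% in Tnfrsf1a to 35.2% in Cd40.

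Levels of different receptors were compared per length, as CPM per kb of exonic sequence in GENCODE M21. That length counts every annotated exon of a gene, whichever transcripts the tubules made. The order and the shares below therefore also depend on it, beyond the spread between libraries. In AA the order was Tnfrsf21 (97.7 ± 23.6 CPM per kb), Tnfrsf12a (36.4 ± 8.57), Ltbr (33.7 ± 3.85), Tnfrsf1a (32.5 ± 2.63), Tnfrsf10b (13.7 ± 3.28), Fas (6.32 ± 0.809), Tnfrsf18 (2.73 ± 0.639), Tnfrsf1b (2.31 ± 0.777), Eda2r (1.91 ± 0.183) and Cd40 (1.63 ± 0.574). In DMSO it was Tnfrsf21 (164 ± 28.7 CPM per kb), Ltbr (27.95 ± 2.51), Tnfrsf1a (13.1 ± 1.27), Tnfrsf12a (3.33 ± 0.688), Tnfrsf10b (3.06 ± 1.25), Fas (2.47 ± 0.540), Cd40 (1.83 ± 0.639), Tnfrsf18 (1.12 ± 0.460), Tnfrsf1b (0.538 ± 0.102) and Eda2r (0.0628 ± 0.0360). In AA, the library ranges of the neighbours Tnfrsf12a, Ltbr and Tnfrsf1a overlapped, as did those from Tnfrsf18 down to Cd40. In DMSO, neighbours overlapped from Tnfrsf12a down to Tnfrsf1b, whereas Eda2r lay below Tnfrsf1b without overlap. Tnfrsf21, Ltbr and Tnfrsf1a were apart from each other, and Tnfrsf1a was apart from Tnfrsf12a.

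Tnfrsf12a therefore stood beside Ltbr and Tnfrsf1a in AA, whereas in DMSO it stood with Tnfrsf10b and Fas. The share of Tnfrsf21 in the summed level per kb of the 10 receptors was 50.7%, 38.2% and 38.2% in AA replicates 1, 2 and 3, and 75.4%, 77.0% and 73.3% in the DMSO replicates. The sum of the other 9 receptors was 121, 135 and 137 CPM per kb in AA and 48.2, 58.7 and 53.7 CPM per kb in DMSO.

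**Figure D3:**
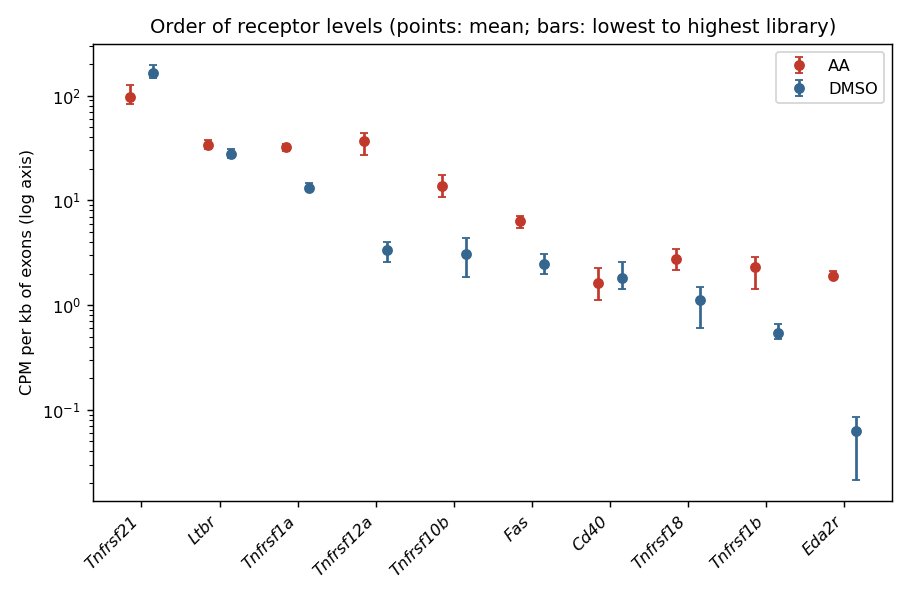
Mean CPM per kb of exons (log axis) of each receptor in AA (red) and DMSO (blue), with bars from the lowest to the highest library, ordered by the DMSO level. Tnfrsf12a lay at 36.4 CPM per kb in AA, beside Ltbr and Tnfrsf1a, and at 3.33 CPM per kb in DMSO.

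Of the other 18 receptor genes of the family, 9 reached the limit of 1 CPM in 3 libraries, and a gene high in AA alone could pass it. Of these 9, 1 was called higher (22.3% of all tested genes) and 8 did not pass (median log2 fold change -0.09). With library medians made equal, 0 were higher (11.2% of all tested genes) and 1 was lower (16.9%). The higher one was Tnfrsf23, a decoy receptor for TRAIL in the mouse, with 1.95, 6.85 and 6.39 CPM in AA and 1.26, 2.06 and 0.501 CPM in DMSO. Its groups overlapped, through AA replicate 1 and DMSO replicate 2, and the log2 fold change was 1.35 (SE 0.40, adjusted p = 0.0271). The call was lost with library medians made equal (adjusted p = 0.0575), without a filter on low values (adjusted p = 0.0844), and without AA replicate 2 or 3 or DMSO replicate 1 or 3 (adjusted p = 0.0613 to 0.112). Tnfrsf23 has close copies in Tnfrsf22 and Tnfrsf26 on the same chromosome, between which reads can be shared.

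Of 18 ligand genes, 7 were tested: 3 rose (22.3% of all tested genes), 1 fell (8.66%) and the other 3 did not pass. Here too a gene high in AA alone could pass the limit on low values. Without that limit 15 were tested, with 3 higher (11.3% of all tested genes) and 1 lower (4.13%). Ligands of several receptors were near or at 0 (named after their values were seen). Cd40lg and Tnfsf18, the ligand genes of CD40 and GITR, had 0 reads in all 6 libraries, which allows up to 0.0964 to 0.225 CPM (3 reads). Fasl had 0, 0.112 and 0.574 CPM in AA and 0.126, 0.128 and 0 CPM in DMSO, and Eda, the gene of ectodysplasin, 1.20, 1.96 and 2.44 CPM in AA and 1.17, 1.70 and 2.38 CPM in DMSO (adjusted p = 0.896). Tnf, the ligand of both TNF receptors, had 1.503, 1.23 and 2.01 CPM in AA and 0.251, 0 and 0 CPM in DMSO, so its DMSO level is that of 1 library with 6 reads. It was tested only because its AA values met the limit of 1 CPM in 3 libraries. Tnf differed by 1.25 on the log2 scale (SE 0.28, adjusted p = 0.00733) with 1 added to CPM, by 0.37 with 5 added and by 4.92 with voom, and its adjusted p was 0.0597 when library sets were fitted.

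Tnfsf12, which encodes TWEAK, the ligand of Fn14, had 21.3, 20.9 and 22.2 CPM in AA and 9.25, 10.7 and 11.4 CPM in DMSO. Both members of this pair were therefore higher in AA, by 0.98 on the log2 scale for the ligand (SE 0.18, adjusted p = 0.00274) and by 3.25 for the receptor. The ligand's call was lost when library sets were fitted (0.86, adjusted p = 0.0658). Tnfsf10, which encodes TRAIL, the ligand of the Tnfrsf10b product, was lower. It had 21.3, 25.5 and 18.2 CPM in AA and 64.9, 64.7 and 45.8 CPM in DMSO, which is -1.38 on the log2 scale (SE 0.19, adjusted p = 0.000508). Ligand and receptor thus moved in opposite directions in this pair. Tnfsf13, which encodes APRIL, had 3.76, 1.91 and 3.45 CPM in AA and 1.46, 0.771 and 0.815 CPM in DMSO (0.99 on the log2 scale, SE 0.29, adjusted p = 0.0268). Of its 14 alternatives 8 missed the threshold, among them equal library medians (adjusted p = 0.103), the term for library sets (adjusted p = 0.115) and leaving out AA replicate 1 or 3 or DMSO replicate 2 or 3 (adjusted p = 0.0610 to 0.0825).

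Of 15 genes of death receptor signalling, 14 were tested. Ripk3 was too low to test, with 0.0752, 1.29 and 0.574 CPM in AA and 0.251, 0.128 and 0.188 CPM in DMSO (named after its values were seen). In limma's test, 6 were called higher (22.3% of all tested genes), 0 were called lower (8.66%) and 8 did not pass. The median log2 fold change was 0.53. With library medians made equal, 4 were higher (11.2% of all tested genes) and 1 lower (16.9%). The proximal components were among those that did not pass, with adjusted p-values of 0.641 for the adaptor gene Fadd, 0.920 for Tradd, 0.831 for Ripk1 and 0.512 for Casp8 (these 4 were named after their values were seen). Mlkl, which encodes the membrane effector of necroptosis, averaged 4.24 ± 0.782 CPM in AA and 0.604 ± 0.395 CPM in DMSO (log2 fold change 1.72, SE 0.28, adjusted p = 0.00145). Its DMSO values rest on 9, 33 and 6 reads, and only DMSO replicate 2 reached 1 CPM. Diablo, whose product SMAC blocks inhibitors of caspases, averaged 50.6 ± 5.58 CPM in AA and 29.6 ± 1.29 CPM in DMSO (0.75, SE 0.15). When library sets were fitted, Diablo had an adjusted p of 0.0643.

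All 34 genes of TRAF and NF-κB signalling were tested. Of these, 16 were called higher (22.3% of all tested genes), 1 was called lower (8.66%) and 17 did not pass. The median log2 fold change was 0.61. With library medians made equal, 9 were higher (11.2% of all tested genes) and 3 lower (16.9%). The strongest calls included both subunit genes of the noncanonical branch. Nfkb2, which encodes p100 and p52, had 81.9, 77.4 and 96.2 CPM in AA and 11.3, 15.4 and 14.98 CPM in DMSO (log2 fold change 2.54, SE 0.17, adjusted p = 6.56e-06). Relb had 14.9, 17.2 and 19.0 CPM in AA and 1.76, 2.86 and 3.89 CPM in DMSO (2.27, SE 0.26, adjusted p = 0.000155). Neither gene had any overlap between the groups, which held for 46.4% of all tested genes.

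Rela, the main transactivating subunit of the canonical branch, averaged 99.5 ± 9.48 CPM in AA and 36.8 ± 6.57 CPM in DMSO (log2 fold change 1.42, SE 0.16). Tnfaip3, whose product A20 is a feedback inhibitor of NF-κB and itself an NF-κB target, averaged 33.7 ± 8.01 CPM in AA and 8.75 ± 2.90 CPM in DMSO (1.85, SE 0.26). Traf5 was the lower gene, at -0.60 on the log2 scale (adjusted p = 0.0427, named after its values were seen), and its groups overlapped. Its call was lost in 8 of 15 alternatives, among them the term for library sets (-0.13, adjusted p = 0.741) and leaving out any AA replicate or DMSO replicate 1 or 2 (adjusted p = 0.0647 to 0.156).

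Of 5 genes that control the shedding of TNF receptors and ligands, all tested, 1 was called higher, 1 lower and 3 neither. The shares over all tested genes were 22.3% higher and 8.66% lower. Rhbdf2, which encodes iRhom2, a partner that the sheddase ADAM17 needs, had 43.1, 40.3 and 55.2 CPM in AA and 8.75, 18.8 and 12.03 CPM in DMSO (log2 fold change 1.78, SE 0.25, adjusted p = 0.000566). Timp3, an inhibitor of ADAM17, had 783, 721 and 835 CPM in AA and 1389, 1483 and 1109 CPM in DMSO (-0.76, SE 0.17, adjusted p = 0.00675). Timp3 was not called when library sets were fitted (-0.51, adjusted p = 0.162).

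Genes known as p53 targets outside the family were listed because Fas, Tnfrsf10b and Eda2r have been described as p53 targets too. Of the 20, all tested, 17 were called higher (22.3% of all tested genes) and 0 lower (8.66%) in limma's test. The median log2 fold change of the 20 was 2.22. Plk2 (4.11, SE 0.17), Cdkn1a (6.64, SE 0.30), Phlda3 (4.41, SE 0.21) and Btg2 (4.23, SE 0.21) had the smallest adjusted p-values, from 6.97e-07 to 1.18e-06. Trp53 itself averaged 78.7 ± 10.8 CPM in AA and 32.4 ± 2.87 CPM in DMSO (1.25, SE 0.15, adjusted p = 0.000237).

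**Figure D4:**
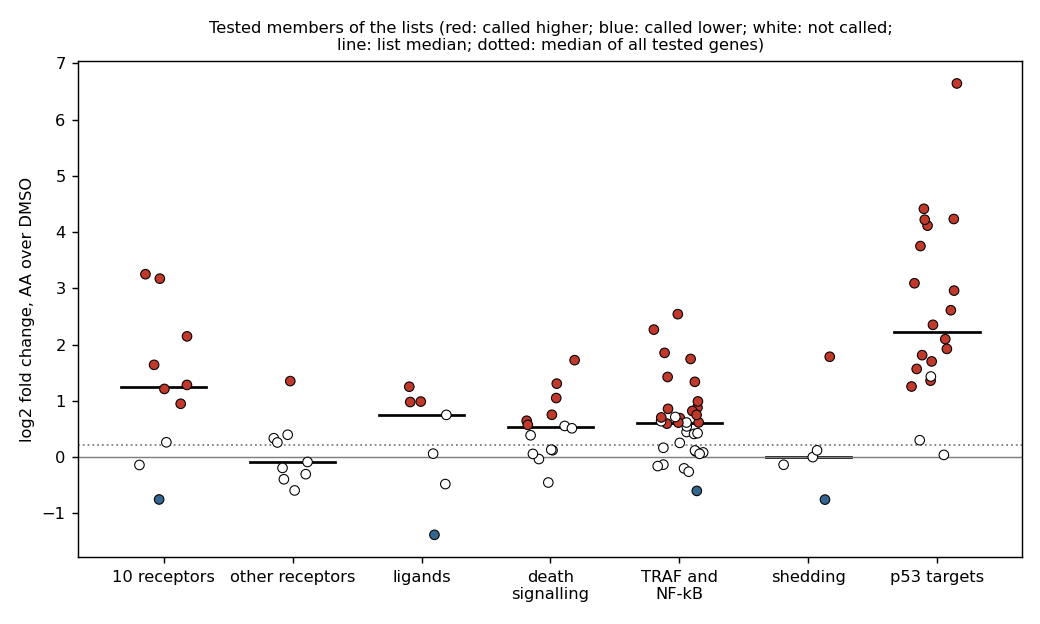
Log2 fold change of AA over DMSO for the tested genes of each list, with a line at the list median and a dotted line at the median of all tested genes (0.21). The medians were 1.25 for the 10 receptors, -0.09 for the other receptors, 0.75 for ligands, 0.53 for death signalling, 0.61 for TRAF and NF-κB genes, -0.00 for shedding and 2.22 for p53 targets.

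For each called receptor, the protein-coding genes with the most similar profile were found by the Euclidean distance between mean-centred log2(CPM + 1) values over the 6 libraries, which the difference between AA and DMSO dominates. The nearest to Tnfrsf12a were Ier5 (distance 0.334), an immediate early gene, and Ces2e (0.449), a carboxylesterase. Eda2r was nearest to Cbr3 (0.364), a carbonyl reductase, and again to Ier5 (0.407). Tnfrsf10b was nearest to Relb (0.377) and to St14 (0.394), which encodes the protease matriptase. Fas was nearest to Nudcd2 (0.157) and Prkx (0.172), Tnfrsf1a to Tor4a (0.151) and to Vim (0.177), the gene of the intermediate filament vimentin, and Tnfrsf1b to Slc12a4 (0.267) and Lrrc57 (0.298). Tnfrsf18 was nearest to Kit (0.223) and Mbp (0.252). Tnfrsf21 was nearest to Slc22a12 (0.132), which encodes the urate transporter URAT1 of the proximal tubule, and to C2cd2l (0.171).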

How the data were processed

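The deposited table held 1 value per gene and library for 32544 genes and 6 libraries. The authors' values are log10 of CPM plus 1, which was read from the values, since undoing the logarithm gave the same total in each library. The submitters' processing notes name bcl2fastq 2.19, kallisto and mm10; the annotation, the summing to genes and the strand setting were not given in the sources used here. CPM were logged again as log2(CPM + 1). Whole reads were recovered for 100% of values within 0.1 read. The 14311 genes that reached 1 CPM in 3 or more libraries were tested with limma 3.58.1 (R 4.3.3, moderated test with a variance trend, two-sided), p-values were adjusted over all of them, and the test was checked on simulated data. Genes named are the 10 receptors, up to 4 called genes per list by smallest adjusted p, Trp53 and the 2 nearest profiles of each called receptor. A few genes that this rule names are not reported here. The receptors and the lists were chosen with earlier results of these data known. Coordinates and exonic lengths came from GENCODE M21 (mm10), promoters from RefSeq. Alternatives were other scalings, filters and pseudocounts, voom, a replicate block, a library-set term and leaving out each library.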

Additional observations from a re-analysis of the deposited data

How the results depend on the processing

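Of 149 log2 fold changes of receptors under the 15 alternatives, 135 kept their direction and their side of the threshold, 11 kept the direction but lost the call and 3 changed sign. The calls of Tnfrsf10b, Tnfrsf12a, Tnfrsf1a, Tnfrsf1b and Eda2r held in all 15. Tnfrsf18 is under the filter of 4 CPM. The sign of Cd40, never called, changed with the library-set term (0.054), without AA replicate 1 (0.058) and without DMSO replicate 2 (0.093), and leaving out each library gave it -0.37 to 0.093. With the library-set term 1481 genes were called (10.3% of all tested, against 30.9%), and 5 receptors, 0 of them lower, 1 ligand, 3 death signalling, 7 TRAF and NF-κB and 1 shedding gene. TMM factors gave 2 other receptors and 10 TRAF and NF-κB genes, and the filter of 4 CPM gave 0 other receptors and 2 ligands. The cause of these differences was not tested. The filter of 4 CPM removed genes from the lists, and with the library-set term the AA effect rests on DMSO replicate 3.

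Leaving out each library gave 2645 to 3980 called genes (the lowest without AA replicate 2), 6 to 8 called receptors, 0 to 1 lower receptor (0 without AA replicate 2 or 3), 0 to 1 other receptor (0 without AA replicate 2 or 3 or DMSO replicate 1 or 3) and 11 to 19 TRAF and NF-κB genes (11 without AA replicate 3 or DMSO replicate 1). Without a filter, all genes with a read were tested and 3471 were called. Voom on recovered reads called 4366 genes. The labels state no pairing of the replicate numbers. The deviations of same-numbered libraries correlated at -0.11, -0.16 and -0.02, and no library correlated best with its own number. With 3 libraries per group, such weak correlations cannot settle whether same-numbered libraries were handled together. With the replicate block 3813 genes and the same 8 receptors were called. Depth limits Eda2r, Tnf and Mlkl in DMSO, which rest on few reads.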
